A study of Mus musculus with 3 samples.

Results

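The genes described here encode junction proteins of the intercalated disc, and were taken by name: Gja1, Gja5, Cdh2, Pkp2, Dsp, Dsg2, Jup, Ctnna1, Ctnna3 and Tjp1. All 10 have a row in each of the 3 count tables, among 55401 gene rows in all. They were named as gap junction, adherens junction and desmosome genes. That choice was made with earlier results of these data known, so counts of members against all genes are descriptions.

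The intercalated disc is the end-to-end contact between neighbouring cardiomyocytes. Gap junctions built from connexins pass current from cell to cell, while adherens junctions anchor the actin of the sarcomere and desmosomes anchor the desmin filaments. In the adult heart the adherens and desmosomal proteins mix in a hybrid zone called the area composita, and inherited changes in desmosomal genes are a known cause of arrhythmogenic cardiomyopathy. Loss of connexin 43 from the disc is a known feature of failing and arrhythmic hearts.

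The study sequenced polyA RNA from single wells of mouse heart cells labelled as adult cardiomyocytes, after tamoxifen, on the iCELL8 nanowell platform, which images each well and keeps single Hoechst-positive, propidium iodide-negative cells. Its title names Myh6-MCM;Ino80fl/fl hearts. Myh6-MCM is a tamoxifen-inducible Cre recombinase driven by the cardiomyocyte promoter Myh6, and fl/fl marks both alleles of Ino80 as flanked by loxP sites. The genotype labels read D1_INO80_OE, D2_INO80_OE and, for a library in which 2 genotypes were mixed, D3_INO80_OE and D3_Ctrl, and the design text speaks of induction of Ino80. The title and the genotype labels therefore point different ways, and the libraries are called here by day: day 1, day 2 and day 3 of tamoxifen. INO80 is the ATPase of a chromatin-remodelling complex. The labels used here do not say how many animals, or of what age and sex, stand behind a library. A day 0 library was not analysed here.

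The 3 libraries held 1232 wells on day 1, 1063 on day 2 and 1099 on day 3, with 452070922 to 487461107 counts each. Of 3394 wells, 3376 had at least 1000 counts and 300 detected genes and were kept. No genotype is given for single wells of day 3, so those wells were split by their own Ino80 level: at least 1000 CPM, or under 100 CPM. CPM is a gene's counts per 1000000 counts of nuclear-encoded genes. Each group is 1 library or a part of 1, so no group has a replicate, no test across groups was possible and no p-value is given. The 95% intervals are exact and cover counting error only. A well barcode was also found in another library for 479 day 1, 458 day 2 and 448 day 3 wells.

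Values are for the cardiomyocyte compartment, that is, wells outside clusters with the markers of a cell type other than cardiomyocytes: 514 on day 1, 606 on day 2 and 890 on day 3. The compartment includes the atrial-like cluster, with 25 wells on day 1 and 4 Ino80-low wells on day 3. Of the day 3 wells, 401 had Ino80 at 1000 CPM or more, 441 had it under 100 CPM and 48 lay between. Ino80 itself stood at 2895 CPM on day 1, 5170 CPM on day 2, 3033 CPM in the day 3 Ino80-high wells and 18.3 CPM in the day 3 Ino80-low wells, the last 2 as the split sets them. All 12 ventricular cardiomyocyte markers were detected in every group. Their summed level was 117760 CPM on day 1, 120470 CPM on day 2, 78178 CPM in the day 3 Ino80-high wells and 140540 CPM in the day 3 Ino80-low wells. The median share of mitochondrial counts was 40.7% on day 1, 44.3% on day 2, 19.7% in Ino80-high and 22.2% in Ino80-low wells of day 3. The groups also fell largely into different clusters. Of the day 1 wells, cluster 2 held 58.4% and cluster 3 held 34.0%. Cluster 3 held 95.9% of the day 2 wells, cluster 7 held 99.0% of the Ino80-high wells and cluster 8 held 96.6% of the Ino80-low wells. None of these clusters met the rule for a cell type name, which did not use the ventricular cardiomyocyte markers. Ccl5, Aspn and Myh11 are among the genes that lead cluster 2, Igkc and Igha lead cluster 3, and Gja1 is among those that lead cluster 8.

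The sequences just upstream of 3 members are shown because these members carry the contrasts below: Gja1 and Jup lay on opposite sides of the day 3 split, and Dsp was the most abundant member per length in all 3 libraries. Each is the 250 bases before the RefSeq start on GRCm38.p6, 5′ to 3′ on the gene's strand. Capitals mark matches to fixed letters, searched on both strands. For AP-1 the letters were TGANTCA, and for the TEAD factors they were CATTCC. For the GATA factors they were AGATAA, and the E-box was searched as CANNTG. For Sp1 they were GGGCGG, and for NKX2-5 the letters searched were CACTTNA. The CRE was searched as TGACGTCA, and the TATA box was searched as TATAAA.
Gja1, chr10:56377050-56377299, plus strand: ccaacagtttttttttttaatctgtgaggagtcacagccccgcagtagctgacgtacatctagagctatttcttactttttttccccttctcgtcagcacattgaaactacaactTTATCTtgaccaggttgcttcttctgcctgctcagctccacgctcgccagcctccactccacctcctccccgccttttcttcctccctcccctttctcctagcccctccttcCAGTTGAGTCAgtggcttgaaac
Dsp, chr13:38151044-38151293, plus strand: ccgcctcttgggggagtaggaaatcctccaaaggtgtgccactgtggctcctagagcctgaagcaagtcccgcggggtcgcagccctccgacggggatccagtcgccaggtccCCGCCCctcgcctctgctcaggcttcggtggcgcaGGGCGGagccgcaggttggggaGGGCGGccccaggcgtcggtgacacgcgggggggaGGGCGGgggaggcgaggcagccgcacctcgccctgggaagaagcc
Jup, chr11:100397791-100398040, minus strand: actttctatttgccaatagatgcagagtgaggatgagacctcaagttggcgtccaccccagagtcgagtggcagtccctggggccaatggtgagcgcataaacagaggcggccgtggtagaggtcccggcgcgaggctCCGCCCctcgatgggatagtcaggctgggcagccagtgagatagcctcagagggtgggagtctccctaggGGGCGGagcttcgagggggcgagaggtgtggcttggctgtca
The Gja1 window holds an AP-1 match 19 bases before the start, which overlaps an E-box match at 23 bases, and a GATA match on the other strand. Of 32851 such windows, 6.75% hold AP-1 letters, 66.2% E-box letters and 9.99% GATA letters. The Dsp window holds 4 Sp1 matches and the Jup window 2, against 32.7% of all windows with at least 1. A match of letters is a description and not a binding site.

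Per length, desmosomal and α-catenin transcripts led the set. Dsp encodes desmoplakin, which ties the desmosome to desmin, and stood at 145 on day 1, 196 on day 2 and 143 on day 3 on a TPM-like scale, that is, CPM per kilobase of merged exons, rescaled to a common total. Ctnna1 encodes αE-catenin, which links cadherins to actin, and was second at 51.5, 97.2 and 107 TPM-like. Gja5 was the lowest member in each library, at 0.708, 0.363 and 0.266 TPM-like. Gja1 had rank 6 of the 10 on day 1 at 4.06 TPM-like, rank 8 on day 2 at 5.79 and rank 4 on day 3 at 26.8. Gja1 was therefore the member whose place in the order moved furthest up between day 2 and day 3.

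**Figure D1:**
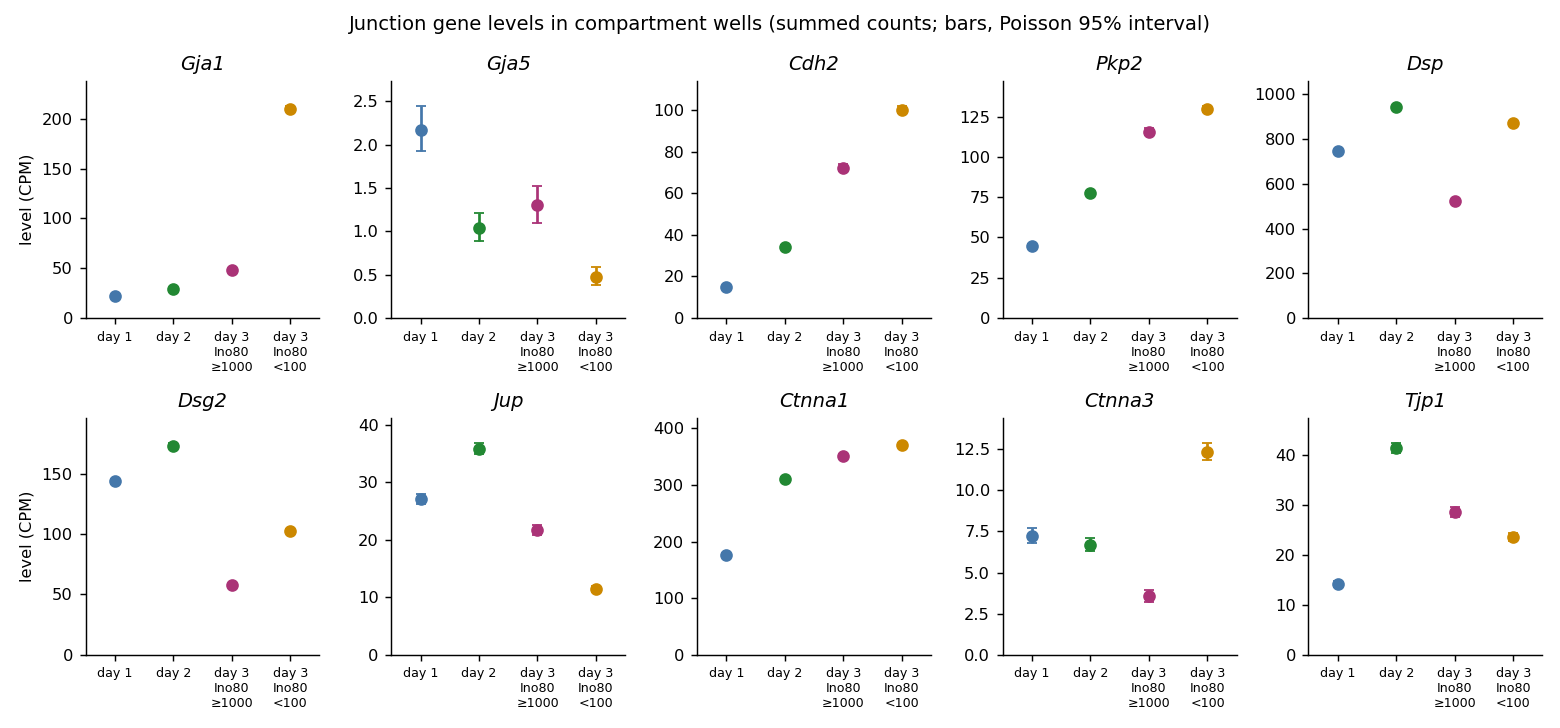
Level of each junction gene in CPM in compartment wells of day 1, day 2, day 3 Ino80-high and day 3 Ino80-low wells; points are summed counts over wells and bars are Poisson 95% intervals. Gja1 stands at 210.5 CPM in the Ino80-low wells and at 22.2 to 48.1 CPM in the other 3 groups, while Jup is lowest in the Ino80-low wells.

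Gja1 encodes connexin 43, the main connexin of the ventricle, and lies at chr10:56377330-56402513. It had 22.2 CPM on day 1 (95% interval 21.4 to 23.1), 29.6 CPM on day 2 (28.7 to 30.4) and 148 CPM on day 3 (146 to 149). Within day 3 it had 48.1 CPM in Ino80-high wells (46.8 to 49.4), against 210.5 CPM in Ino80-low wells (208 to 213). The Ino80-low wells held by far the highest level, and the day 3 library mean lies between its 2 parts. Gja5 encodes connexin 40, a connexin of atrial and conduction cells, and lies at chr3:96904693-97077416. It had 2.17 CPM on day 1, 1.04 on day 2, 1.30 in Ino80-high and 0.476 in Ino80-low wells of day 3. Only 10 to 17 wells of a group had a Gja5 count, and a single well gave 46.3% to 63.3% of the counts, so no order is read from them. Summed atrial markers stood at 7198 CPM on day 1, 221 on day 2, 2520 in Ino80-high and 1235 in Ino80-low wells, and their part in Gja5 was not tested. The 25 atrial-like wells of day 1 had 7.25 CPM of Gja5 and 78.5 CPM of Gja1, and gave 737 of the 2935 day 1 counts of Gja1. The exons of Gja5 overlap those of Gpr89 on the other strand by 165 bases, and the labels do not state whether the counting used strand.

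Cdh2 encodes N-cadherin, the classical cadherin of the disc, at chr18:16588877-16809246. It had 14.8 CPM on day 1 (14.1 to 15.4), 34.3 on day 2 (33.4 to 35.3) and 89.7 on day 3 (88.6 to 90.7). In Ino80-high wells of day 3 it had 72.3 CPM and in Ino80-low wells 100.2 CPM. Each day was thus higher than the one before, and both parts of day 3 were above day 2. Ctnna1, at chr18:35118859-35254779, had 177 CPM on day 1, 311 on day 2, 351 in Ino80-high and 371 in Ino80-low wells. Its step lay between day 1 and day 2, and the later values lay close together. Ctnna3 encodes αT-catenin, which binds plakophilin 2 in the area composita, at chr10:63430098-65003667. It had 7.25 CPM on day 1, 6.69 on day 2, 3.56 in Ino80-high and 12.3 in Ino80-low wells, from 30 to 83 wells with a count per group. Tjp1 encodes ZO-1, a scaffold that binds the tail of connexin 43, at chr7:65296165-65527781. It had 14.2 CPM on day 1, 41.4 on day 2, 28.6 in Ino80-high and 23.6 in Ino80-low wells. Summed endothelial markers in the same wells stood at 877, 1160, 1712 and 1310 CPM, in that order of groups, and their part in Tjp1 was not tested.

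Among desmosomal genes, Pkp2 encodes plakophilin 2, an armadillo protein of the plaque, at chr16:16213318-16272712. It had 44.7 CPM on day 1, 77.7 on day 2, 116 in Ino80-high and 129.7 in Ino80-low wells. Dsp, at chr13:38151294-38198577, had 746 CPM on day 1, 942 on day 2, 521 in Ino80-high and 870.3 in Ino80-low wells. Dsg2 encodes desmoglein 2, a desmosomal cadherin, at chr18:20558074-20604521. It had 144 CPM on day 1, 174 on day 2, 57.5 in Ino80-high and 103 in Ino80-low wells. In CPM, the desmosomal cadherin and desmoplakin were thus lowest in the Ino80-high wells, whereas Pkp2 was lowest on day 1. Scaled to the ventricular markers, log2 ratios of Ino80-high to Ino80-low wells were 0.11 for Dsp and 0.01 for Dsg2. Jup encodes plakoglobin, which sits in both adherens junctions and desmosomes, at chr11:100368958-100397763. It had 27.0 CPM on day 1, 35.9 on day 2, 21.6 in Ino80-high and 11.4 in Ino80-low wells. Overlapping genes on the other strand share 499 bases with Dsp, 330 with Dsg2 and 95 with Ctnna1.

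Comparisons are given as log2 ratios, and a member is counted when it is at least 2-fold apart and its mean level is at least 10 CPM. In every one of the 6 comparisons, 8 of the 10 members reached that level. Gja5 and Ctnna3 did not.

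On day 2 against day 1, 2 of 8 members were at least 2-fold higher, against 5.25% of all 6451 genes tested, and none was 2-fold lower, against 1.84%. These were Tjp1, with a log2 ratio of 1.55 (1.47 to 1.62), and Cdh2, with 1.22 (1.14 to 1.29). Ctnna1 followed at 0.82 and Pkp2 at 0.80. All 8 were above 0, with a median of 0.61 against 0.16 over all genes. Over all kept wells, Tjp1 was at 0.65. With size factors the same number of members, 2, were 2-fold higher, against 3.62% of all genes, and 2.59% were lower. Gja1 stood at 0.41, and at 0.72 without the atrial-like wells. Over all alternative settings it ranged from 0.12 to 1.49, so it passed 2-fold in at least 1 of them.

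On day 3 against day 1, 4 of 8 members were at least 2-fold higher, against 5.26% of 6164 genes, and none was 2-fold lower, against 6.46%. The ratios were 2.73 for Gja1 (2.68 to 2.78) and 2.60 for Cdh2 (2.54 to 2.67). Pkp2 followed at 1.48 and Ctnna1 at 1.06, but Ctnna1 was at 0.94 over all kept wells, under 2-fold. Jup stood at -0.83 and Dsg2 at -0.73, while Dsp was at -0.01 and turned positive under 3 other scalings. The members' median was 0.95, against -0.11 over all genes. With mitochondrial counts in the total, 5 of 8 members were 2-fold higher, with Tjp1 added at 1.20, against 10.9% of all genes, and 1.66% of all genes were lower. Day 3 mixes 2 genotypes, so this ratio depends on their mix.

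On day 3 against day 2, 2 of 8 members passed 2-fold upward, against 3.05% of 6323 genes, and 2 passed it downward, against 10.2%. Gja1 was higher by 2.32 (2.27 to 2.36) and Cdh2 by 1.38 (1.34 to 1.43). Jup stood at -1.24 (-1.30 to -1.18) and Dsg2 was 2.01-fold lower. The downward count depended on the scaling. With mitochondrial counts in the total, 3 members were 2-fold higher, with Pkp2 added at 1.07, against 7.38% of all genes. None was then 2-fold lower, against 2.05%, since Jup stood at -0.85 and Dsg2 at -0.61. With size factors 2 were higher, against 4.70%, and only Jup was lower, against 5.79%, with Dsg2 at -0.84. Scaled to ventricular markers, Dsg2 was at -0.95. Over all kept wells Jup was at -0.80 and Dsg2 at -0.77. In wells with 25 to 35% mitochondrial counts, Dsg2 turned to 0.30.

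**Figure D2:**
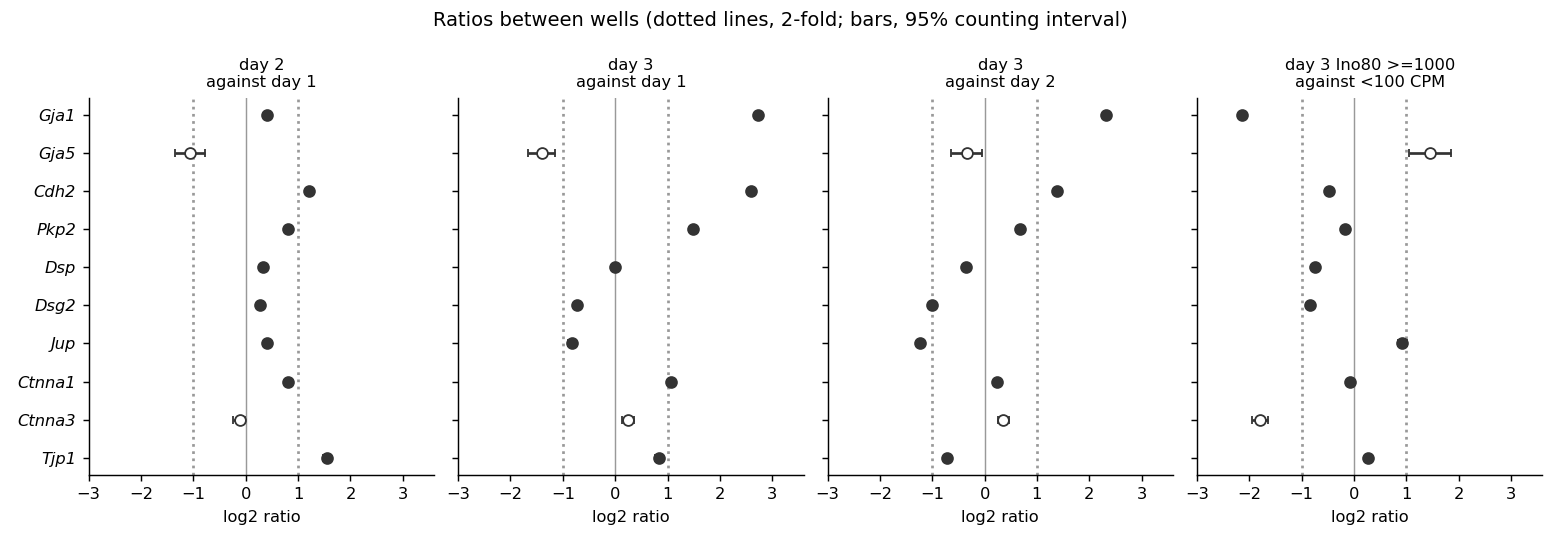
Log2 ratios of the 10 members in 4 comparisons, first-named group over second; filled points reached a mean of 10 CPM, open points (Gja5 and Ctnna3) did not, bars are 95% counting intervals and dotted lines mark 2-fold. Gja1 and Cdh2 lie right of the 2-fold line on day 3 against both earlier days, and Gja1 is the filled point left of it in the Ino80 split.

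The Ino80 split of day 3 compares wells of 1 library. In Ino80-high against Ino80-low wells, 1 of 8 members was at least 2-fold lower, against 11.4% of 5991 genes, and none was 2-fold higher, against 23.1%. That member was Gja1, at -2.13 (-2.17 to -2.09), or 4.38-fold lower. Dsg2 stood at -0.84, Dsp at -0.74, Cdh2 at -0.47, Pkp2 at -0.16 and Ctnna1 at -0.08, while Jup was at 0.92 and Tjp1 at 0.28. The members' median was -0.32, against 0.25 over all genes. Scaled to the ventricular markers, whose sum was itself lower in Ino80-high wells, every ratio gains 0.85. Gja1 is then at -1.28, and Cdh2, Pkp2, Dsp, Dsg2 and Ctnna1 turn positive. With median-of-ratios size factors every ratio loses 0.43, Dsp and Dsg2 pass 2-fold lower, and Tjp1 turns negative. Gja1 and Jup kept their signs under all 3 other scalings. With size factors, the shares of all genes were 12.9% higher and 21.3% lower. Macrophage markers summed to 207 CPM in Ino80-high and 48.4 CPM in Ino80-low wells, and erythroid markers to 647 and 121 CPM. Their part in the ratios was not tested.

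Day 3 wells were also read in 7 ranges of Ino80, with limits at 10, 30, 100, 1000, 2000 and 4000 CPM. Gja1 had 238, 195, 205 and 193 CPM in the 4 ranges below 1000 CPM of Ino80. It had 51.9, 43.1 and 64.4 CPM in the 3 ranges above. Gja1 was thus lower in each range above 1000 CPM than in each range below it, and the 4 lower ranges lay together. The range of 100 to 1000 CPM held only 48 wells, with an upper quartile of Ino80 at 541 CPM. A step therefore cannot be told from a slope there. Jup had 8.33 to 11.5 CPM below 1000 CPM of Ino80 and 17.3 to 23.5 CPM above. Dsp and Cdh2 were lowest between 1000 and 2000 CPM of Ino80, at 374 and 50.5 CPM. They were higher again above 4000 CPM, at 780.4 and 102 CPM. The median mitochondrial share moved with them, at 18.6%, 19.3% and 26.9% in the 3 ranges from 1000 CPM upward. Within Ino80-high wells, Dsp had 751 CPM in the highest quartile of mitochondrial share and 478 CPM in the lowest, and Cdh2 had 119 and 58.9 CPM. Ino80 and mitochondrial share were not separated here either.

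**Figure D3:**
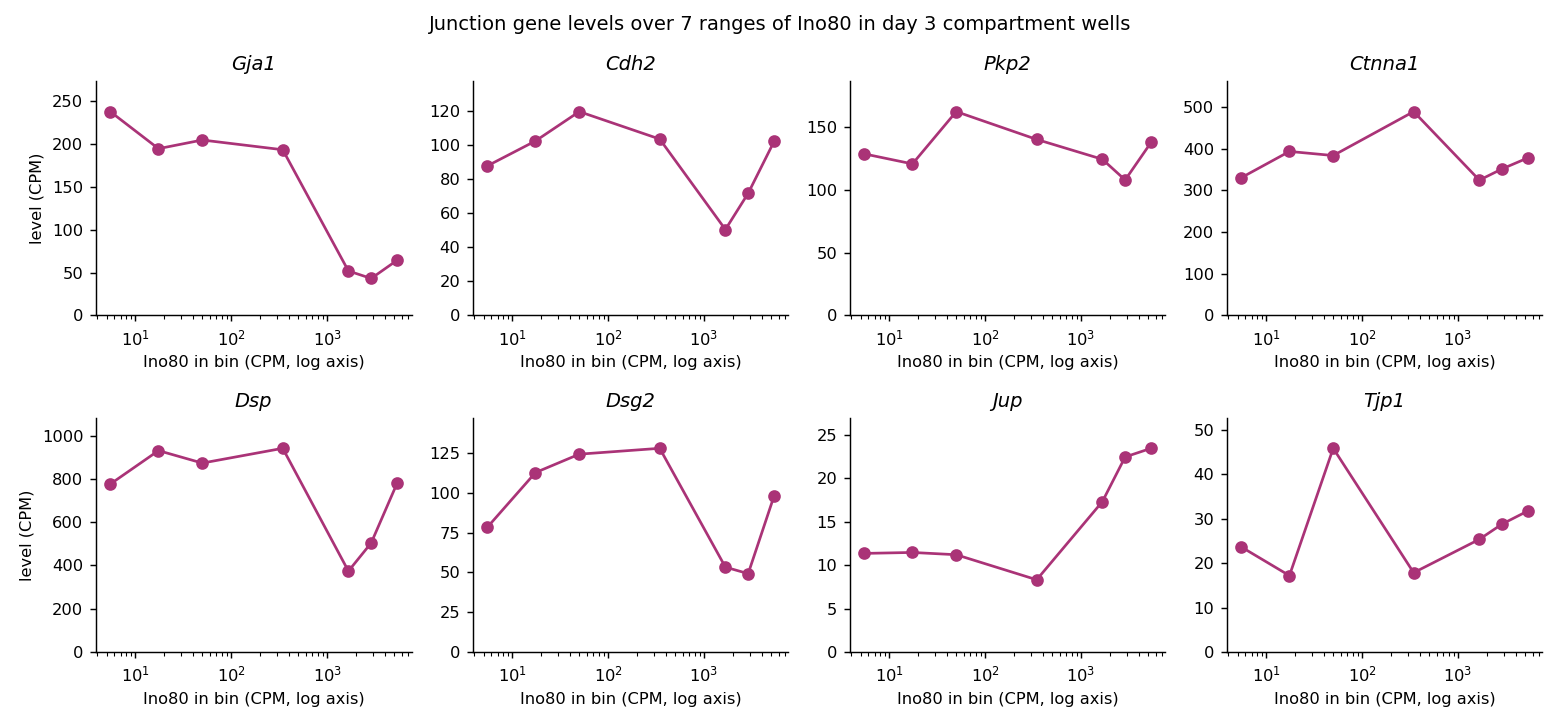
Level of 8 members in CPM over 7 ranges of Ino80 in day 3 compartment wells, plotted at the Ino80 level of each range on a log axis. Gja1 drops between the range of 100 to 1000 CPM and that of 1000 to 2000 CPM, with 51.9 CPM in the range of 1000 to 2000 CPM and 193 CPM in the one before, and Jup is higher above it.

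In day 2 wells all 4 quartiles of Ino80 lay above the day 3 Ino80-low level. By quartile of Ino80, from lowest to highest, Gja1 had 36.4, 41.6, 22.1 and 15.4 CPM. Gja1 was thus lower in the upper 2 quartiles, although its Spearman's rho with Ino80 over the 606 wells was -0.0030. Dsg2 had 76.1, 195, 183 and 274 CPM, and Cdh2 had 11.1, 49.1, 37.8 and 45.5 CPM. The mitochondrial share moved with these levels: in the lowest quartile of mitochondrial share on day 2 Cdh2 had 11.7 CPM, and in the highest 52.4 CPM. Ino80 and mitochondrial share were not separated.

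Day 1 and day 2 were also set against the day 3 Ino80-low wells. On day 1, 1 of 8 members was at least 2-fold higher, against 11.9% of 5949 genes, and 4 were at least 2-fold lower, against 3.97%. Gja1 was at -3.24, Cdh2 at -2.76, Pkp2 at -1.54 and Ctnna1 at -1.07, with Jup at 1.25. With size factors no member was 2-fold higher, against 5.15% of all genes, and 6 of 9 were lower, against 9.53%. With mitochondrial counts in the total none was higher, against 4.12%, and 5 of 8 were lower, against 8.61%. Under these scalings Jup stood at 0.85 and 0.88, Tjp1 passed downward at -1.13 and -1.10, and with size factors Ctnna3 reached the level and stood at -1.17. Scaled to ventricular markers, Ctnna1 was at -0.82. Over all kept wells Jup was at 0.95 and Ctnna1 at -0.95. Jup turned to -0.19 in wells with 25 to 35% mitochondrial counts. On day 2, 1 of 8 members was at least 2-fold higher, against 20.2% of 6164 genes, and 2 were at least 2-fold lower, against 3.39%. Gja1 was at -2.83 and Cdh2 at -1.54, with Jup at 1.65. With size factors 1 of 9 members was higher, against 6.50% of all genes, and 4 were lower, against 11.0%. With mitochondrial counts in the total 1 of 8 was higher, against 7.08%, and 3 were lower, against 7.81%. Pkp2 was added by both, at -1.25 and -1.12, and Ctnna3 by size factors, at -1.39. These comparisons and the Ino80 split share the Ino80-low wells, so they are not independent of each other. Library and day cannot be told apart in them.

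The share of wells with a count was compared after thinning each well to 30000 counts, which left out 12 shallower wells on day 1, 4 on day 2, 4 Ino80-high and 3 Ino80-low wells of day 3. Gja1 was then found in 17.7% of day 1 wells, 23.9% of day 2 wells, 40.3% of Ino80-high wells and 82.6% of Ino80-low wells of day 3. Before thinning these shares were 32.3%, 40.6%, 69.6% and 96.8%. Cdh2 was found in 13.7%, 32.1%, 53.7% and 69.0% of thinned wells, in the same order of groups. Both genes were found together in 2.99% of day 1 wells, 8.80% of day 2 wells, 23.2% of Ino80-high and 58.4% of Ino80-low wells. Dsp was found in 91.9% to 98.9% of thinned wells of every group. The median number of members found per thinned well was 3 on day 1, 4 on day 2, 4 in Ino80-high and 5 in Ino80-low wells. Before thinning, the median number of detected genes of any kind was 3312.5, 3708, 3884 and 3885 in that order. Detection of all genes after thinning was not computed. These shares and counts of members therefore cannot be set against all genes.

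**Figure D4:**
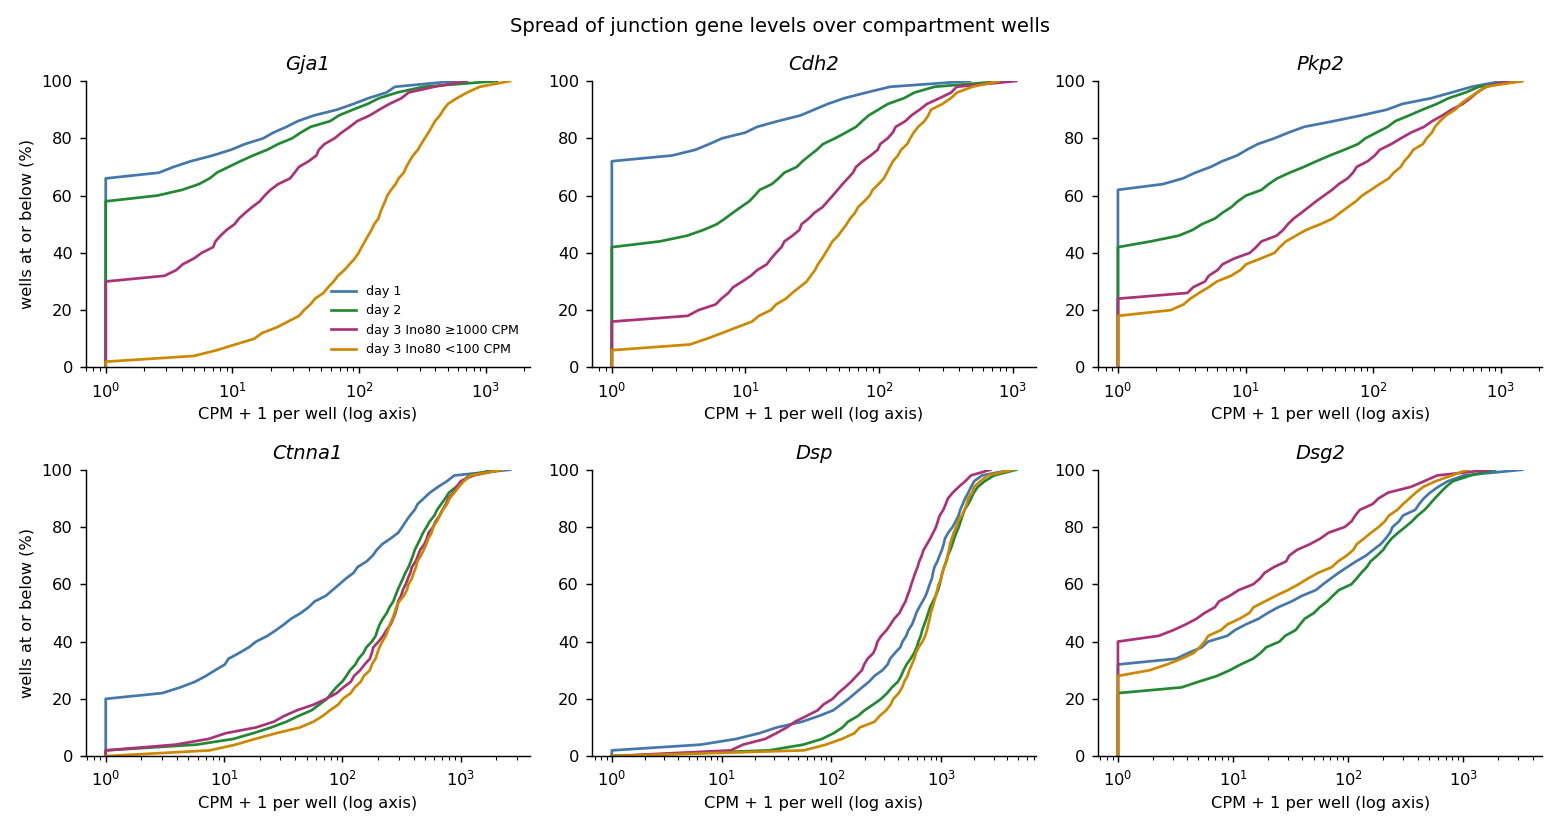
Percent of compartment wells at or below each level, in CPM plus 1 on a log axis, for 6 members in the 4 groups. The Gja1 curve of the Ino80-low wells lies apart to the right, with a median of 130.3 CPM, against 9.37 CPM in Ino80-high wells and 0 on day 1 and day 2.

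Wells classed as other cell types showed several of these shifts too, but not all. Macrophage-like wells, which should hold no disc and numbered 96, 78 and 81 on days 1, 2 and 3, carried Myh6, the cardiomyocyte myosin heavy chain, at 11329, 9934 and 9779 CPM in that order of days, against 13869, 12903 and 11673 CPM in the compartment. In macrophage-like wells Gja1 had 25.2, 10.5 and 133 CPM on days 1, 2 and 3, and Cdh2 had 12.1, 14.1 and 77.6 CPM. In all day 3 wells outside the compartment, Gja1 had 37.0 CPM in 95 Ino80-high wells and 192 CPM in 90 Ino80-low wells, a log2 ratio of -2.38. Jup stood at 1.05 in the same wells, while Tjp1 was at -0.60 there and at 0.28 in the compartment. On day 3 against day 1, Jup was at 0.23 and Tjp1 at -1.30 in wells outside the compartment. In the compartment these ratios were -0.83 and 0.83. The levels in the compartment are therefore not shown to be those of intact single cardiomyocytes, and the part of free RNA in them was not tested. Endothelial-like wells numbered 448, 216 and 11 on days 1, 2 and 3. In them Tjp1 had 48.0, 66.2 and 106 CPM and Ctnna1 had 206, 325 and 579 CPM, both above the compartment on each day. The day 3 value of Tjp1 rests on 11 wells, of which 1 gave 47.4% of its counts.

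**Figure D5:**
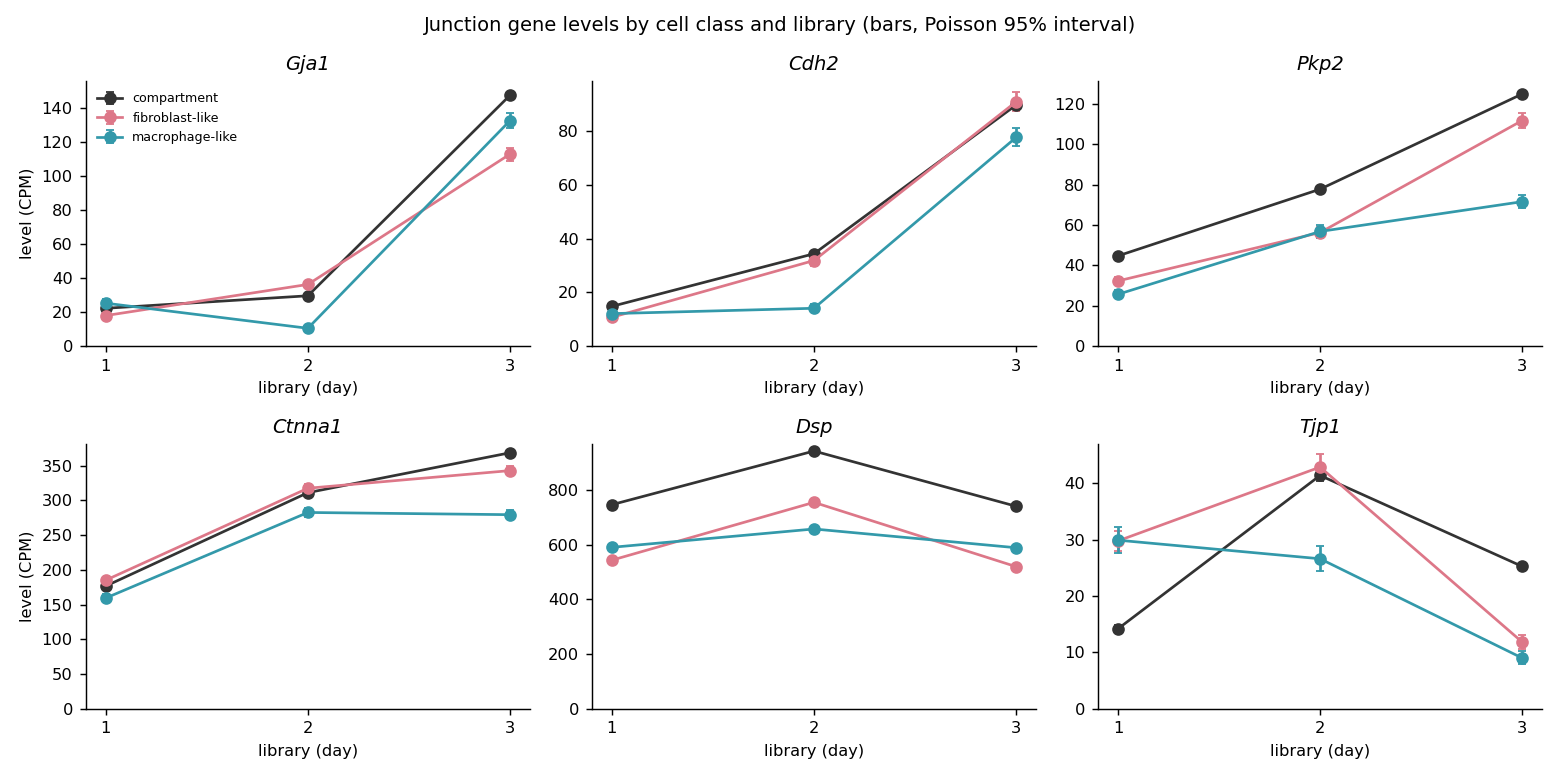
Level of 6 members in CPM by library day in compartment, fibroblast-like and macrophage-like wells, with Poisson 95% intervals. Gja1 and Cdh2 are highest on day 3 in all 3 classes, at 133 and 77.6 CPM in macrophage-like wells.

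Other genes of the disc were read from lists named for their roles. Of 28 area composita and scaffold genes, 24 reached 10 CPM on day 2 against day 1, and 23 of these were above 0, with a median of 0.58 against 0.16 over all genes. Of these, 1 passed 2-fold: Flnc, the actin cross-linker filamin C, with 368 CPM on day 2 and 160 CPM on day 1. The share over all genes was 5.25%. In Ino80-high against Ino80-low wells, 3 of 24 passed 2-fold upward, against 23.1% of all genes, and 7 downward, against 11.4%, with a median of 0.01 against 0.25 over all genes. Flnc had 359.7 CPM in Ino80-high and 54.3 CPM in Ino80-low wells, and Xirp1, an actin-binding Xin repeat protein of the disc, 251 and 42.1 CPM. Ank2, the scaffold ankyrin-B, had 14.0 and 53.4 CPM. Tmem65, a disc membrane protein, had 18.8 and 70.9 CPM. The upward and downward examples thus came from the same list. Among other connexins, Gjc1, connexin 45, had 29.6 CPM in Ino80-high and 13.7 CPM in Ino80-low wells. Among other desmosome genes, Des, which encodes desmin, had 1032 and 413 CPM, and Dsc2, desmocollin 2, had 6.80 and 14.9 CPM. Of 6 other adherens junction genes at 10 CPM, none passed 2-fold in either direction, against the same shares of all genes; Cdh13, T-cadherin, was nearest at 139 CPM in Ino80-high and 277 CPM in Ino80-low wells. Of 11 trafficking and turnover genes none was 2-fold lower and 1 was 2-fold higher, again against 11.4% and 23.1%: Mapre1, a microtubule plus-end protein, with 110.4 and 52.0 CPM.

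Genes with the most similar pattern over the 4 groups, among 4083 candidates, were taken by the root mean square distance of centred log2 levels. For Gja1 these included Fhl2 (0.31) and Nexn (0.38). Fhl2 had 77.2 CPM on day 1, 109 on day 2, 95.5 in Ino80-high and 522 in Ino80-low wells. For Cdh2 they included Nrp1 (0.28) and Sorbs2 (0.34). With 4 points, of which 2 come from 1 library, this is a description of likeness only.

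Across wells of a group, rank correlations between members were mostly near 0, and with counts this sparse nothing is read from them. Over 45 pairs, Spearman's rho had a median of 0.07 over 514 day 1 wells and 0.06 over 606 day 2 wells, and its highest value was 0.20 in both. Over the 890 day 3 wells the median was 0.06 and the highest value 0.32, for Gja1 with Dsp, a pair at 0.08 within Ino80-high and 0.24 within Ino80-low wells. Gja1 and Ino80 had a rho of -0.45 over all 890 day 3 wells, 0.12 within the 401 Ino80-high wells and 0.08 within the 441 Ino80-low wells. Wells of a group share a library and low counts, and the part of these in such values was not tested.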

How the data were processed

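PolyA RNA of single wells was measured in 3 libraries. Each deposited table holds raw counts per gene and well; the submitters' processing notes name mm10 and 3 programs (STAR, featureCounts, cutadapt) without settings. Rows that name no gene held at most 0.000246% of counts and were left out. Library totals were 452070922 to 487461107 counts. Wells with 1000 counts and 300 genes were kept (18 left out), scaled to 10000 counts, reduced to 2000 variable genes and 30 components, and clustered with 15 neighbours at resolution 0.5 (scanpy 1.11.5, igraph 0.11.9). No doublet caller was run. A cluster was named when at least 3 markers were 2-fold higher at 20 CPM or more and 1 was among its 10 leading genes. Ventricular cardiomyocyte markers were not used for naming. Counts were summed per group and divided by nuclear-encoded counts to give CPM. The ratio calculation was run on simulated counts that held counting error only, as its intervals assume. That run does not cover spread between wells or libraries. Alternatives covered scaling, wells and thresholds. The members and gene lists were chosen with earlier results of these data known. Named genes are the members, genes of the lists, and, of the 3 genes most like each of Gja1 and Cdh2 (the members with the widest range), those reported here. Which listed genes serve as examples was decided after their values were seen.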

Additional observations from a re-analysis of the deposited data

How the results depend on the processing

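No paired analysis was possible because each group is 1 library or a part of 1, and for the same reason no replicate could be left out. Over all 60 member ratios, 674 of 720 alternative values kept their sign and 46 did not. On day 3 against day 1, Dsg2 ranged from -0.80 to 0.72, Jup from -0.91 to 0.36 and Tjp1 from -0.30 to 1.20. On day 1 against Ino80-low wells, Tjp1 ranged from -1.13 to 0.34 and Dsg2 from -1.04 to 0.74. Of 301 alternative values of the 25 member ratios that were at least 2-fold apart, 294 kept their sign and 7 did not. Of these 7, 2 belong to members at 10 CPM or more, both in wells with 25 to 35% mitochondrial counts: Dsg2 on day 3 against day 2, at 0.2985, and Jup on day 1 against day 3 Ino80-low wells, at -0.1919. The counts of members at least 2-fold apart moved as follows, and where no construction is named the cause was not tested. Day 2 against day 1 gave 2, but 1 over all kept wells, 4 in wells with 25 to 35% mitochondrial counts and 4 at 1.5-fold. Day 3 against day 1 gave 4, but 5 with mitochondrial counts in the total and 7 at 1.5-fold. Over all kept wells Ctnna1 was at 0.94 in that comparison, under 2-fold. Day 3 against day 2 gave 4 (2 higher, 2 lower), but 2 over all kept wells, 3 higher and 0 lower with mitochondrial counts in the total, and 2 higher and 1 lower with size factors or scaled to ventricular markers. The Ino80 split gave 1, but 3 with size factors, all lower, 2 with the mean of per-well CPM, 4 in the mitochondrial band and 4 at 1.5-fold. It also gave 3 when scaled to ventricular markers, with Gja1 lower and Jup and Tjp1 higher. That scaling, and the shares of all genes under other scalings, were chosen after seeing the data. Day 1 against Ino80-low wells gave 5 (1 higher, 4 lower), but 3 over all kept wells, 0 higher and 5 lower with mitochondrial counts, and 0 higher and 6 lower with size factors. Day 2 against Ino80-low wells gave 3, but 5 with size factors, 5 in the mitochondrial band and 6 at 1.5-fold. At 1.5-fold the 4 members on day 2 against day 1 were all higher. Of the 7 on day 3 against day 1, Dsg2 and Jup were lower and the rest higher. In the Ino80 split Gja1, Dsp and Dsg2 were lower and Jup was higher. Of the 6 on day 2 against Ino80-low wells, Gja1, Cdh2 and Pkp2 were lower and the rest higher. The shares of all genes were 18.9% higher and 6.94% lower on day 2 against day 1, and 12.2% and 18.6% on day 3 against day 1. They were 40.0% and 8.35% on day 2 against Ino80-low wells. In the Ino80 split 37.8% were higher and 1196 of 5991 genes lower. The mitochondrial band held 80 day 1, 110 day 2, 43 Ino80-high and 78 Ino80-low wells. No share of all genes was computed for that band, all kept wells, the mean of per-well CPM or the ventricular scaling. The counts of members under these settings therefore cannot be set against all genes, and nothing is read from them. The share of all genes 2-fold apart was 7.10% on day 2 against day 1, with 2.84% at a mean of 50 CPM and 45.0% with no filter. In the Ino80 split it was 34.5%, 34.0% and 59.7%. With mitochondrial counts in the total, day 3 against day 1 gave 10.9% higher and 1.66% lower. Gja1 in the Ino80 split ranged from -2.56 to -1.28.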

Other observations

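A list of 10 Wnt and Hippo readout genes, none of them a junction member, was read in the Ino80 split of day 3, and 7 reached a mean of 10 CPM. Of these, 3 were at least 2-fold higher in Ino80-high than in Ino80-low wells, against 23.1% of all genes, with a median log2 ratio of 0.75 against 0.25 over all genes. Ankrd1, a stretch-responsive nuclear protein of cardiomyocytes, had 4194 CPM in Ino80-high and 672 CPM in Ino80-low wells. Ccn2, a matricellular protein, had 112 and 16.7 CPM, and Amotl2, an angiomotin family scaffold, had 49.5 and 15.3 CPM. Yap1, the transcriptional co-activator of the Hippo pathway, had 17.4 and 14.8 CPM.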
